A study of Mus musculus with 3 samples.

Results

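The genes described here are 10 regulators of the G1 phase of the cell cycle, taken as a list of names with no threshold on their values. They are the D-type cyclins Ccnd1, Ccnd2 and Ccnd3, the E-type cyclins Ccne1 and Ccne2, the kinases Cdk4 and Cdk6, the inhibitors Cdkn1b and Cdkn2c, and the pocket protein Rb1. This list and the other gene lists were chosen with earlier results of these data known. Setting them against all genes is therefore a description. All 10 regulators were listed in each library, among 16742 genes listed in any library and 13212 listed in all 3. RNA-seq was performed on 1 library per condition, each from 3 pooled mice of the C57BL/6 background, with an age of 6 to 8 weeks on the labels. The control library was lin- bone marrow cells of wild type mice, which are the cells left after those with mature lineage markers were removed. TR1 and TR9 were GFP+ bone marrow cells of TBLR1-RARa (TR) leukemia mice of the third transplant generation, each line founded by 1 primary leukemic mouse. In these cells TR was expressed from an MSCV retroviral vector together with GFP. The control cells carried no vector, had not been transplanted and were isolated by depletion, not by sorting, so TR, transplantation and the way of isolation cannot be told apart.

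In G1, mitogen signals raise the D-type cyclins, which bind CDK4 and CDK6. The cyclin D kinases phosphorylate the retinoblastoma protein RB1, release E2F factors from it and so allow transcription of the genes of S phase, among them the E-type cyclins, which activate CDK2. CDKN2C (p18) belongs to the INK4 inhibitors that bind CDK4 and CDK6, whereas CDKN1B (p27) restrains cyclin E-CDK2. In marrow, CDK6 and cyclin D3 are known for their use by blood cells, and CDK6 also acts as a transcriptional cofactor there.

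Of the 10 regulators, Ccnd1, Ccnd2, Ccne1, Cdkn2c and Rb1 were lower in TR1 than in control and Cdk6 was higher, and in TR9 the same 5 were lower and Cdk6 was higher. Ccnd3, Ccne2, Cdk4 and Cdkn1b were not called in either line. Both comparisons use the 1 control library. A gene was called when its reads differed between 2 libraries in a conditional exact Poisson test at a false discovery rate up to 0.001, with a log2 ratio of FPKM of 1 or more in size, which is 2-fold. The test is one of reads, so it sets libraries and not conditions against each other, and without replicates none of the differences can be checked. Of all genes tested, 13.0% were called lower and 8.09% higher in TR1, and 10.8% were called lower and 9.37% higher in TR9. The 10 regulators had a median log2 ratio of −1.09 (TR1) and −0.95 (TR9), against −0.29 and −0.12 over all genes tested. With TMM scaling, which levels the bulk of the genes between libraries, the medians of the 10 were −0.84 in both lines, and Rb1 was then not called in TR9. That scaling also moved the background, to 9.77% lower and 10.4% higher in TR1 and to 9.22% lower and 10.5% higher in TR9, so that the excess of lower over higher calls among all genes rests on the scaling.

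**Figure D1:**
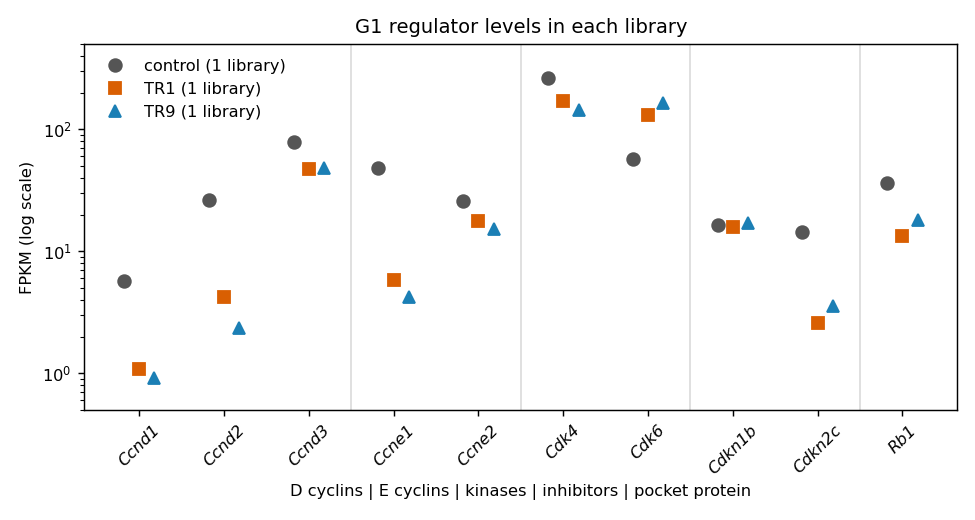
Level of each of the 10 genes in FPKM on a log axis, with 1 point per library (gray circles control, orange squares TR1, blue triangles TR9) and no error bars because each condition had 1 library. Cdk6 lies higher in both TR libraries than in control, and Ccnd1, Ccnd2, Ccne1, Cdkn2c and Rb1 lie lower.

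The libraries held 5488778 (control), 5571409 (TR1) and 5129662 (TR9) expected counts, and the lowest count of any of the 10 regulators was 16. The labelled cells were checked by marker genes. Summed FPKM of 5 promyelocyte genes, including Mpo and Elane, was 4251 in control against 21278 in TR1 and 23701 in TR9. All 5 were higher in TR1 and 4 in TR9, where Mpo was not called (log2 ratio 0.64) and Elane held 13178 FPKM of the sum. Summed FPKM of 8 erythroid genes was 2257 in control against 8.44 in TR1 and 13.2 in TR9, and all 8 were lower in each line, with Epor at 0 in TR1. For 8 megakaryocyte genes the sums were 949.8, 3.31 and 2.32, and all 8 were lower, with Pf4 and Gp6 at 0 in both TR libraries. For 6 genes listed for mast cells and basophils, the sums were 1077, 74.8 and 86.2, and all 6 were lower. That list is not specific to these cells. It holds Gata1, also a gene of erythroid cells and megakaryocytes, at 96.0 FPKM in control, and Prg2, also a gene of eosinophils. Prg2 was at 563, 1.10 and 1.43 FPKM, whereas Mcpt8 was at 247, 57.25 and 66.3. For 4 stroma genes the sums were 281, 6.00 and 2.88, with 3 lower in each line. Col1a1 held 265 FPKM of that sum in control, and Lepr was higher in TR1. For 6 progenitor genes the sums were 235, 77.0 and 77.7, with 5 lower and 1 higher in TR1 and 4 lower in TR9. Kit was at 73.49 FPKM in control, 29.13 in TR1 and 62.55 in TR9. Kit and Hlf were not called in TR9, and Flt3 was higher in TR1 and lower in TR9. Late granulocyte genes rose, from 92.7 to 23162 in TR1 and 8948 in TR9, with 8 and 7 of 8 called. The control library therefore held RNA of the erythroid and megakaryocyte lineages, which the TR libraries nearly lacked. The TR libraries also nearly lacked RNA of Prg2 and of the stroma gene Col1a1, at 265, 2.68 and 1.27 FPKM. The part of this in the differences of the G1 regulators was not tested, and in bulk RNA fewer cells of a type cannot be told apart from less RNA per cell.

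The D-type cyclins, the regulatory partners of CDK4 and CDK6, were examined first. Ccnd1, cyclin D1, had 119 expected counts in control against 23 in TR1 and 18 in TR9, which is a level of 5.67, 1.08 and 0.92 FPKM. It was low in both TR libraries, at log2 ratios of −2.39 for TR1 (95% interval −3.10 to −1.74) and −2.62 for TR9 (−3.43 to −1.90). These exact Clopper-Pearson intervals take in the error of counting alone. Ccnd2, cyclin D2, had 842 counts in control against 138 in TR1 and 70 in TR9, or 26.3, 4.24 and 2.34 FPKM. It was 6.21-fold lower in TR1 (log2 ratio −2.63, −2.90 to −2.37) and 11.2-fold lower in TR9 (−3.49, −3.86 to −3.14). Ccnd3, cyclin D3, had 858, 535 and 497 counts, or 78.6, 47.5 and 48.4 FPKM. Ccnd3 was thus below control in both lines, by 1.66-fold in TR1 and 1.62-fold in TR9, but was not called. Its log2 ratios were −0.73 (−0.89 to −0.57) and −0.70 (−0.86 to −0.54).

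Ccnd3 was the most abundant D-type cyclin per length in each library, and its predominance was greater in the TR libraries. The summed level of the 3 genes was 110.6 FPKM in control against 52.8 in TR1 and 51.7 in TR9. Of this sum, Ccnd3 made up 71.1% in control against 89.9% in TR1 and 93.7% in TR9. The share of Ccnd2 was 23.8%, 8.03% and 4.53%, and that of Ccnd1 was 5.13%, 2.05% and 1.78%. The level of Ccnd3 was 2.99 times that of Ccnd2 in control against 11.2 times in TR1 and 20.7 times in TR9. The change of a ratio between 2 genes does not depend on how the libraries are scaled, and is given here from counts with an exact conditional interval. The ratio of Ccnd3 to Ccnd2 was 3.80 times the control ratio in TR1 (95% interval 3.07 to 4.73) and 6.96 times in TR9 (5.31 to 9.24). For Ccnd3 to Ccnd1 the change was 3.22 times (2.02 to 5.35) in TR1 and 3.83 times (2.29 to 6.76) in TR9. The ratio of Ccnd2 to Ccnd1 was 0.85 times that of control in TR1 (0.52 to 1.44) and 0.55 times in TR9 (0.31 to 1.02), and both intervals include 1.

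**Figure D2:**
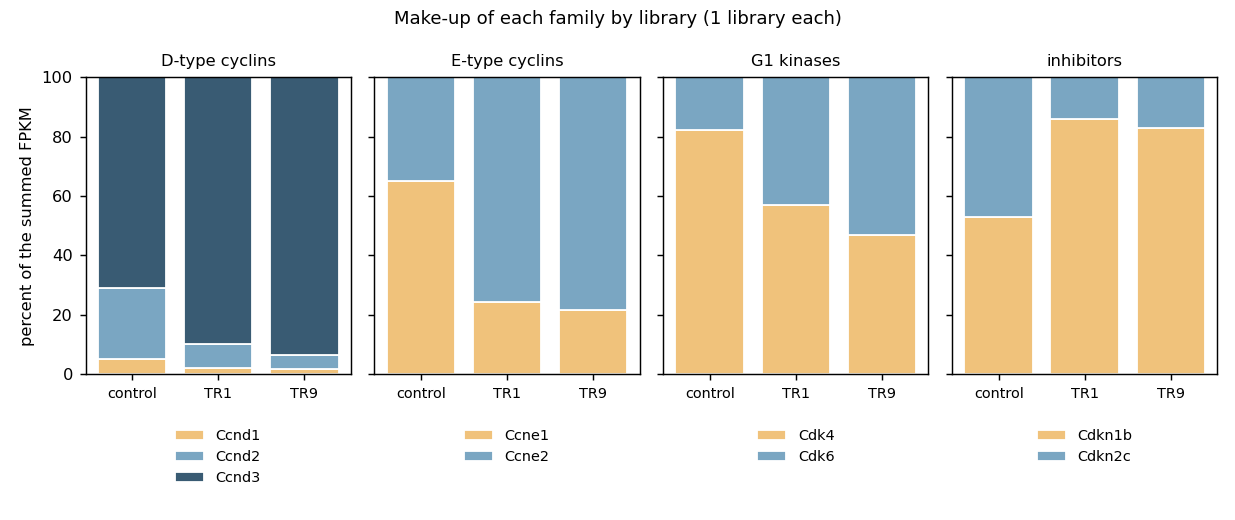
Percent of the summed FPKM of each family held by each of its genes, with 1 bar per library for the D-type cyclins, the E-type cyclins, the kinases Cdk4 and Cdk6, and the inhibitors Cdkn1b and Cdkn2c. Ccnd3 held 71.1% of the D-type sum in control and 93.7% in TR9, and Cdk6 held 17.8% of the kinase sum in control and 53.2% in TR9.

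The E-type cyclins, which activate CDK2 at the end of G1, did not move to the same extent. Ccne1, cyclin E1, had 533 counts in control against 65 in TR1 and 44 in TR9, or 48.1, 5.76 and 4.24 FPKM. It was 8.35-fold lower in TR1 (log2 ratio −3.06, 95% interval −3.46 to −2.69) and 11.3-fold lower in TR9 (−3.50, −3.98 to −3.06). Among the 10 regulators, Ccne1 had the lowest ratio in each line. Ccne2, cyclin E2, had 431, 302 and 238 counts, or 25.9, 17.8 and 15.3 FPKM. Ccne2 was below control but was not called, with log2 ratios of −0.54 (−0.76 to −0.32) and −0.76 (−0.99 to −0.53). In control, Ccne1 held 65.0% of the summed E-type level, and in TR1 and TR9 it held 24.4% and 21.7%, so that Ccne2 was the higher of the pair in both TR libraries. The ratio of Ccne2 to Ccne1 was 5.74 times that of control in TR1 (4.24 to 7.85) and 6.68 times in TR9 (4.70 to 9.67). By the distance between the pairs of log2 ratios against control, the genes nearest to Ccne1 among the other regulators and the pathway genes described below were Ccnd2, at 0.43, and Ccnd1, at 1.11, over 3 libraries.

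The kinases went in opposite directions. Cdk4 had 1946 counts in control against 1294 in TR1 and 993 in TR9, or 262, 171 and 143 FPKM. It was below control in both TR libraries but was not called, at log2 ratios of −0.61 (95% interval −0.72 to −0.51) and −0.87 (−0.99 to −0.76). Cdk6 had 774 counts in control against 1794 in TR1 and 2070 in TR9, or 57.0, 130 and 163 FPKM. It was high in both TR libraries, 2.28-fold higher than control in TR1 (log2 ratio 1.19, 1.06 to 1.31) and 2.86-fold higher in TR9 (1.52, 1.40 to 1.64). The Cdk6 call in TR1 ended when FPKM were rescaled to the same sum, as in TPM, with a log2 ratio of 0.96. By edgeR's exact test at an assumed variation of 0.2, Cdk6 was called in neither line. The summed level of Cdk4 and Cdk6 was 319, 301 and 306 FPKM. Cdk6 made up 17.8% of that sum in control against 43.1% in TR1 and 53.2% in TR9. The ratio of Cdk6 to Cdk4 was 3.48 times that of control in TR1 (3.12 to 3.90), 5.24 times in TR9 (4.68 to 5.87), and in TR9 1.50 times that of TR1 (1.35 to 1.67). The level of a gene per length rests on its gene model. The length listed for Cdk6 was 2470 bases, whereas its longest GENCODE M21 transcript had 11525, and for Cdk4 these were 1365 and 2053 bases. This bears on which of the kinases was the more abundant. The listed lengths were the same in each library, so length does not enter the change of their ratio. Whether the libraries differed in the forms of these transcripts was not tested.

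The sequences upstream of Cdk4 and Cdk6 are shown because these partners of the same cyclins moved apart, with that of Ccne1, which had the lowest ratios. Of the 10 genes, 6 matched the RefSeq promoter table (GRCm38.p6, whereas the labels name mm9 for the mapping of the reads). Printed are the 250 bases before the start site, 5′ to 3′ on the strand of the gene, with each E-box CACGTG, a word bound by MYC and related factors, in capitals. Cdk4 is at chr10:127063285-127063534 on the plus strand, Cdk6 at chr5:3343643-3343892 on the plus strand, and Ccne1 at chr7:38107491-38107740 on the minus strand.
Cdk4: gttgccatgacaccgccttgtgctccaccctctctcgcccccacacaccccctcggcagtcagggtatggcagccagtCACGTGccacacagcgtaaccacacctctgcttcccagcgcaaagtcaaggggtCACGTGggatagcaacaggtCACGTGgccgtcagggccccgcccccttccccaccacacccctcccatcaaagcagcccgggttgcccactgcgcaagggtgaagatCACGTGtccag
Cdk6: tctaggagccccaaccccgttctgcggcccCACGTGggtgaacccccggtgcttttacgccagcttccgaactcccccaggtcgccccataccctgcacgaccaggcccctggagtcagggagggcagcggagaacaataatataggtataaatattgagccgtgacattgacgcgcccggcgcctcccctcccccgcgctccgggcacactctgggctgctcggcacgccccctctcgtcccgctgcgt
Ccne1: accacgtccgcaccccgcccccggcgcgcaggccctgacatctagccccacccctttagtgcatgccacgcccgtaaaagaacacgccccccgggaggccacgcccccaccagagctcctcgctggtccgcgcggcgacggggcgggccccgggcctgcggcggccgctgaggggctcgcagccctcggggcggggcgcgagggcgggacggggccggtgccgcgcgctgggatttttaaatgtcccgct
The Cdk4 window held 4 E-boxes, which start 172, 118, 98 and 11 bases before the start site. The Cdk6 window held 1, at 220 bases before it, and the Ccne1 window held 0. The word reads the same on both strands, and 6.02% of 32851 windows of this length held it. None of the 8 windows of the 6 matched genes held TTTGGCGC, TTTCCCGC, TTTCGCGC or TTTGCCGC, words of the E2F motif, on either strand, and 1.86% of all windows did. A match is a description of these letters and says nothing of binding.

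Of the inhibitors, Cdkn2c was lower and Cdkn1b was close to control. Cdkn2c, which encodes p18, had 87 counts in control against 16 in TR1 and 20 in TR9, or 14.4, 2.60 and 3.54 FPKM. It was low in both TR libraries, at log2 ratios of −2.47 (95% interval −3.34 to −1.69) and −2.02 (−2.80 to −1.31). Cdkn1b, which encodes p27, had 215, 212 and 211 counts, or 16.3, 15.8 and 17.1 FPKM. Its log2 ratio was −0.05 (−0.33 to 0.23) in TR1 and 0.07 (−0.21 to 0.35) in TR9, and its direction flipped with the scaling, with 0.20 in TR1 under TMM. These intervals leave out a 2-fold difference between the libraries in either direction. The level of Cdkn1b was 1.13 times that of Cdkn2c in control against 6.06 times in TR1 and 4.82 times in TR9. The change of their ratio was 5.35 times (2.99 to 10.1) in TR1 and 4.26 times (2.49 to 7.59) in TR9.

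Rb1, the pocket protein that the G1 kinases phosphorylate, had 939 counts in control against 351 in TR1 and 434 in TR9, or 36.5, 13.4 and 18.1 FPKM. It was lower in both TR libraries, 2.72-fold in TR1 (log2 ratio −1.45, 95% interval −1.63 to −1.27) and 2.02-fold in TR9 (−1.02, −1.19 to −0.85). In TR9 the ratio lay at the 2-fold threshold and the call ended with TMM scaling (−0.91), with the median of ratios (−0.94) and with a pseudocount of 1 FPKM (−0.98). By edgeR's exact test at an assumed variation of 0.2, Rb1 was called in neither line.

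**Figure D3:**
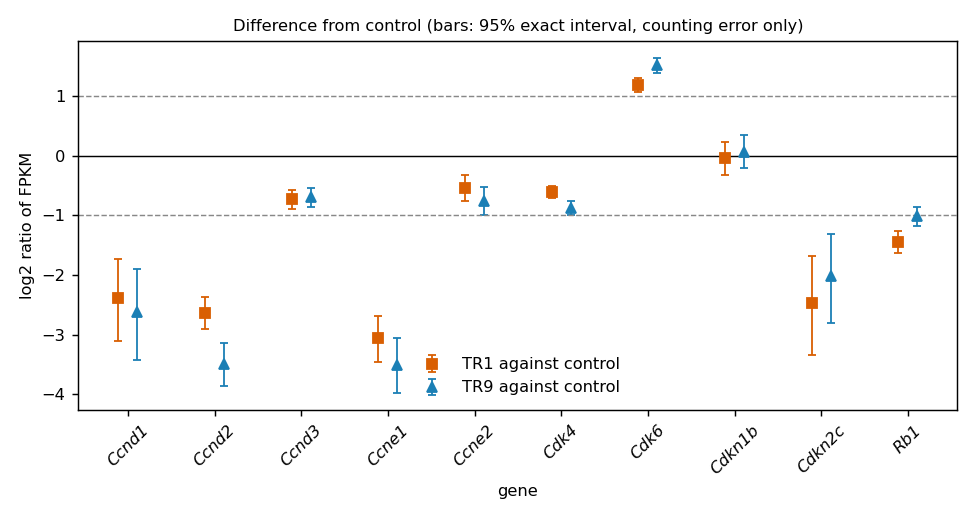
Log2 ratio of FPKM against control for each of the 10 genes in TR1 (orange squares) and TR9 (blue triangles), with 95% exact intervals for counting error, the line of no difference and dashed lines at 2-fold. The intervals of Cdk6 lie above 1 in both lines, those of Ccnd1, Ccnd2, Ccne1 and Cdkn2c lie below −1, and those of Cdkn1b include 0.

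TR9 and TR1 were then compared with each other. None of the 10 regulators was called, against 2.31% of all genes called lower and 4.34% called higher in TR9. With TMM scaling 0 were called as well, against 2.83% and 3.51%. Ccnd2 had the widest difference, with a log2 ratio of −0.86 (95% interval −1.29 to −0.43). The log2 ratio was 0.45 (−0.58 to 1.49) for Cdkn2c, −0.44 (−1.03 to 0.13) for Ccne1 and 0.43 (0.22 to 0.64) for Rb1. Cdk6 was 1.25-fold higher (0.33, 0.24 to 0.42) and Cdk4 was 1.20-fold lower (−0.26, −0.38 to −0.14) in TR9 than in TR1. The intervals of Ccnd1, Ccnd3, Ccne1, Ccne2, Cdkn1b and Cdkn2c included 0.

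A list of 36 other genes of G1 and S-phase entry was examined next, and 35 of them were listed in a library. In TR1, 6 were called lower and 1 higher (4 and 2 with TMM scaling), and in TR9, 5 were called lower and 1 higher, where 13.0% and 10.8% of all genes were lower and 8.09% and 9.37% higher. The median of their log2 ratios was −0.34 for TR1 and −0.41 for TR9, with −0.29 and −0.12 over all genes. Of 8 listed kinases and cyclins, only Ccna2, cyclin A2, which acts with CDK2 in S phase, was called in either line. It had 2321 counts in control against 679 in TR1 and 722 in TR9, at log2 ratios of −1.80 (95% interval −1.92 to −1.67) and −1.59 (−1.71 to −1.47). Cdk2 itself, the partner of cyclin E, had 599, 488 and 575 counts, with log2 ratios of −0.34 and 0.02.

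Of the 5 other listed CDK inhibitors, Cdkn1c, Cdkn2a and Cdkn2b had 3 or fewer counts in control, too few for a call of lower against it. Cdkn1a, which encodes p21, had 47 counts in control against 66 in TR1 and 144 in TR9. It was not called in TR1 (log2 ratio 0.46, 95% interval −0.10 to 1.03) and was higher in TR9 (1.71, 1.23 to 2.22). Cdkn1c, which encodes p57, had 3, 55 and 12 counts and was higher in TR1 (4.15, 2.53 to 6.47), with 2.07 (0.18 to 4.54) in TR9. The difference between the lines was itself called for both genes. Cdkn1a was higher in TR9 than in TR1, by a log2 ratio of 1.25, and Cdkn1c was lower, by −2.08. Cdkn2d, the INK4 inhibitor p19, had 173, 205 and 99 counts and was not called in either line.

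Among 10 E2F and DP factors, E2f4, an E2F that acts with pocket proteins in repression, was called in each line. It had 1737 counts in control against 578 in TR1 and 478 in TR9, at log2 ratios of −1.61 (95% interval −1.75 to −1.48) and −1.77 (−1.91 to −1.62). Tfdp2, a dimer partner of E2F, had 740, 236 and 445 counts and was lower in TR1 (−1.68), with −0.65 in TR9. E2f6 in TR1 (−1.59) and E2f8 in TR9 (−1.42) were the remaining calls in this group, and these 2 genes were named after their values were seen. Rbl1, the pocket protein p107, had 1103, 604 and 671 counts, with log2 ratios of −0.99 and −0.67, and was not called. Of 10 genes of ubiquitin ligases, Skp2, whose product marks p27 for degradation, had 303, 148 and 142 counts and was lower in TR1 (−1.09) and TR9 (−1.16). Ambra1, a substrate receptor for D-type cyclins, had 452, 195 and 173 counts and was lower in both, with −1.22 and −1.29. With TMM scaling the calls of Skp2 (−0.84) and Ambra1 (−0.97) in TR1 ended. Fbxo4, of the same group, went the other way, with 33, 70 and 61 counts and log2 ratios of 1.06 and 0.98. It was not called in either line, but was called higher in TR1 with TMM scaling (1.31). Fbxo4 was also named after its values were seen. By edgeR's exact test at an assumed variation of 0.2, Skp2 and Ambra1 were called in neither line, E2f4 and Tfdp2 were not called in TR1, and Ccna2 and Cdkn1a were not called in TR9.

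**Figure D4:**
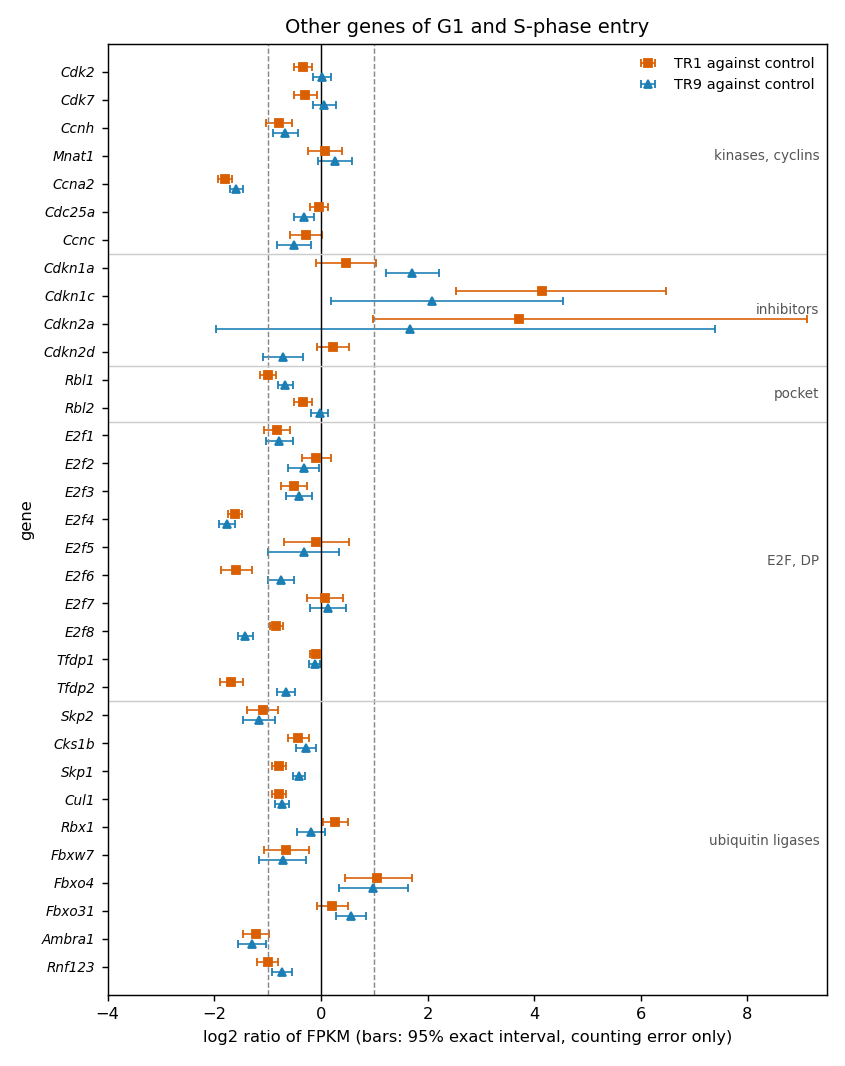
Log2 ratio of FPKM against control in TR1 (orange squares) and TR9 (blue triangles) for the 33 other genes of G1 and S-phase entry with at least 1 FPKM in a library, grouped by role, with 95% exact intervals for counting error and dashed lines at 2-fold. Ccna2, E2f4, Skp2 and Ambra1 lie below −1 in both lines, and Cdkn1a and Cdkn1c lie to the right of 0.

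Genes transcribed at and after the entry into S phase were counted next, from a list also chosen with earlier results of these data known. Of 20 such genes, 12 were lower and 0 higher in TR1, and 11 were lower and 0 higher in TR9, with medians of −1.04 and −1.02, where 13.0% and 10.8% of all genes were lower and the medians were −0.29 and −0.12. With TMM scaling 6 were lower in each line, beside 9.77% and 9.22% of all genes. The 3 with the widest mean difference were Cdc6, Orc1 and Rrm1. Rrm1, the large subunit of ribonucleotide reductase, had 4058 counts in control against 1377 in TR1 and 1361 in TR9, with log2 ratios of −1.58 and −1.48. Cdc6 and Orc1, which license origins of replication, had log2 ratios of −1.33 and −1.39 in TR1 and of −1.90 and −1.68 in TR9. By the same edgeR test, Cdc6 in TR9 was called, and Cdc6 in TR1 and Orc1 and Rrm1 in either line were not.

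Counts of the 10 regulators were whole numbers in each library, whereas 19.9% to 21.2% of the counts of all listed genes were not. In GENCODE M21, exons of 7 of the 10 overlap exons of a gene on the opposite strand, among them Cdk4 with Tspan31, Cdk6 with Gm17590 and Rb1 with Lpar6. The sources used here do not state whether counting used the strand, and without it the reads of such partners cannot be told apart.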

How the data were processed

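Gene expression was measured by RNA-seq in control, TR1 and TR9 cells, each as 1 library of 3 pooled mice. After filtering, the authors mapped the reads (BWA, Bowtie) and estimated gene expression by RSEM. The labels name the build mm9, and tool versions are not given in the sources used here. The authors deposited, per gene and library, the RSEM expected count, which is not normalized, and the FPKM, scaled for effective transcript length and library total. Genes that a library did not list were set to 0. Names were matched by NCBI Gene ID to RefSeq (GRCm38.p6) for 16698 of 16742 IDs.

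Rounded expected counts of 2 libraries were tested by an exact Poisson test, conditional on their sum (scipy 1.17.1), and p-values were adjusted by Benjamini-Hochberg over all genes listed in either. Calls needed a false discovery rate up to 0.001 and a log2 ratio of FPKM of 1 or more in size, after FPKM under 0.01 were set to 0.01. The kind of test and the thresholds are those of the study's methods. Alternatives were TMM scaling (edgeR 4.0.16, R 4.3.3), the median of ratios, TPM scaling, a pseudocount of 1 FPKM, a minimum of 10 expected counts, a false discovery rate of 0.05, edgeR's exact test at a biological variation assumed to be 0.2, and the fold alone. The Poisson call was tested on simulated counts of TR1 against control that held counting error alone. That simulation says nothing of variation between mice, and it did not cover the other steps. The regulators and all gene lists were chosen with earlier results of these data known. Named pathway genes were those called either lower in each line, higher in each line, or between the lines, with Cdk2, Cdkn1a, Cdkn2d and Rbl1, and of the S-phase list the 3 with the widest mean log2 ratio. Depth was 5129662 to 5571409 expected counts, and intervals cover counting error only.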

Additional observations from a re-analysis of the deposited data

Results flagged for a closer look

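Cdkn1a, Cdkn1c and Tfdp2 differed between the 2 TR lines in the test on their reads, which compares these libraries and not the lines. Tk1 of the S-phase list was also called between the lines, and was named after its values were seen. It had 501 counts in control against 119 in TR1 and 272 in TR9. Against control, Tk1 was lower in TR1 (log2 ratio −2.10) and not called in TR9 (−0.79), and it was higher in TR9 than in TR1 (1.31). The log2 ratio of TR9 against TR1 was 1.25 for Cdkn1a, −2.08 for Cdkn1c and 1.03 for Tfdp2. The call of Tfdp2 ended with TMM scaling (0.90), with the median of ratios (0.91) and with a pseudocount of 1 FPKM (0.92), and none of the 3 was called by edgeR's exact test at an assumed variation of 0.2.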

How the results depend on the processing

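No library can be left out with 1 per condition. No paired analysis was possible, because each library was a pool of 3 mice and the labels pair no mice between libraries. In the 3 comparisons, the counts of the 10 regulators called lower or higher stayed within 1.5 times of the values given under the alternatives, with these exceptions. Against control in TR1, 0 were higher with TPM scaling and with edgeR's exact test at an assumed variation of 0.2. In TR9 that test left 3 lower and 0 higher. It called neither Cdk6 nor Rb1 in either line, nor Cdkn2c in TR9. Over all genes it called 992 lower and 657 higher in TR1, 830 and 717 in TR9, and 94 and 188 in TR9 against TR1, against 2120 and 1318, 1766 and 1527, and 363 and 681 by the Poisson test. The fold alone gave 4306 and 2809 in TR1, 3767 and 3210 in TR9, and 1772 and 2669 between the lines, since fewer conditions had to be met.

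Directions that turned were those of ratios near 0. With TMM scaling and the median of ratios, the log2 ratio of Cdkn1b in TR1 was 0.20 and 0.19, and between TR9 and TR1 it was −0.018 and −0.0048. Under both, those of Ccnd3 (−0.10 and −0.091) and Rrm1 (−0.028 and −0.015) between the lines also turned. With TPM scaling the log2 ratio was −0.041 for Cdkn1b and −0.087 for Cdk2 in TR9, −0.0062 for Cdkn2d in TR1, and 0.048 for Skp2 and 0.047 for Ambra1 between the lines. Rbl1 was called lower in TR1 with TPM scaling (−1.22), and Cdkn2d lower in TR9 than in TR1 with TMM scaling (−1.06). By counts instead of FPKM, which ignores length, Ccnd1, Ccnd2 and Ccnd3 made up 6.54%, 46.3% and 47.2% of the D-type cyclins in control, 3.31%, 19.8% and 76.9% in TR1, and 3.08%, 12.0% and 85.0% in TR9. TMM took out a shift of −0.25 for TR1 and −0.11 for TR9. With the present depth Ccnd1 and Cdkn2c had 16 to 23 counts in the TR libraries, which gives their ratios the widest intervals among the 10.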

Other observations

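The marker check also covered B cell, T cell and macrophage genes. Of 7 listed B cell genes, 1 was lower and 1 higher in TR1, and 1 was lower and 2 higher in TR9. Of 6 T cell genes, 1 was lower in each line. Of 5 macrophage genes, 3 were lower and 2 higher in TR1, and 3 were lower and 1 higher in TR9. Of all genes, 13.0% and 10.8% were lower and 8.09% and 9.37% higher in TR1 and TR9. Igll1, which encodes a surrogate light chain of the pre-B cell receptor, was listed with 2 expected counts in control against 63 in TR1 and 847 in TR9. Cd79a, a signalling chain of the B cell receptor, had 8 counts in control, was not listed above 0 in TR1 or TR9, and was not called. Cd79b had 69 counts in control and 0 in TR1 and TR9, and was called lower in each line. Vpreb1 had 1, 14 and 20 counts and was called higher in TR9.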
